A study of Mus musculus with 26 samples.

Results

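The genes described here are 10 genes of the retinoic acid pathway, namely the receptors Rara, Rarb, Rarg and Rxra, the synthesis enzymes Aldh1a1, Aldh1a2 and Aldh1a3 and the degrading enzymes Cyp26a1, Cyp26b1 and Cyp26c1. They were taken by name from the 26180 genes with an annotated start site on the mouse genome build mm10 (GRCm38). No measured value was a criterion, but earlier results of these data were known when the genes were chosen. A called region was assigned to a gene where it overlapped a window of 1.5 kb either side of a start site, and the region with the most overlap was kept per gene and per table of regions. Of 120 pairs of a gene and a table, 89 had a region, and 9 of the 10 genes had one in at least 1 of the 12 tables. Aldh1a1 had none.

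Retinoic acid is a small diffusible signal made from vitamin A. The Aldh1a enzymes oxidise retinaldehyde to retinoic acid, the Cyp26 enzymes, which are cytochrome P450s, break it down, and nuclear receptors (RAR with its partner RXR) bind DNA elements of genes and switch their transcription when the ligand binds. In mouse embryonic stem cells (mESCs) added retinoic acid drives differentiation, and Rarb and Cyp26a1 are textbook direct targets of the receptors.

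The study profiled bivalent chromatin, in which H3K4me3 (a mark of active promoters) and H3K27me3 (a mark laid down by Polycomb) sit together, by sequential ChIP (reChIP) from 2000000 cells per sample. In K4-K27 reChIP chromatin was pulled down first with an H3K4me3 antibody and then with an H3K27me3 antibody, and K27-K4 reChIP used the reverse order. The in-line totals are the 10% of material set aside after the first pulldown, and in IgG–IgG both pulldowns used unspecific antibody. Each ChIP was made in 2 replicates of E14 mESCs, from different passages on separate days, in WT clones 57 and 58 and in DKO clones 43 and 53, which lack the epigenetic priming factors DPPA2 and DPPA4.

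All cells were grown without feeders on gelatin in serum and LIF. Each genotype is 2 clones, and the clones were sequenced in another batch than the E14 cells, so that cells and batch cannot be told apart between E14 cells and the clones. The E14 replicates also came from different sequencing batches. IgG–IgG was available once for E14 cells (replicate 1) and once for the clones (WT clone 57). The H3K4me3 antibody is described in the methods of the study as also detecting H3K4me2. All values are log2 RPM per kb of region (RPM, the reads of a library scaled to a common depth), and a region's 6 libraries per ChIP are given in the order E14 replicates 1 and 2, WT clones 57 and 58, DKO clones 43 and 53. In bulk chromatin, fewer cells or alleles with a mark and fewer marked nucleosomes on each cannot be told apart.

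The libraries held 6741244 to 47903462 reads, with a median of 16875025. All 8 stem cell markers had a total H3K4me3 region at their promoter in E14, WT and DKO cells. Of 5 fibroblast markers, 4, 4 and 2 had one, and of 5 primitive endoderm markers, 4, 4 and 3, so that an H3K4me3 region at a promoter did not separate cell types, and the part of other cells in the results was not tested. Promoter H3K4me3 at Dppa2 and Dppa4 does not check a deletion, and at Dppa4 it was 2.17 and 1.30 in WT and 2.25 and 1.41 in DKO clones. The total H3K4me3 library of WT clone 57 stood apart, with a median over the shared regions described below of 1.46 against 0.48 in clone 58 and 0.87 and 0.68 in the DKO clones.

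Of the 10 genes, 9 had a promoter sequence in RefSeq (GRCm38.p6), all but Aldh1a3, each window running from 250 bases before to 50 bases after the start. The windows were searched on both strands for direct repeats of the hexamer AGGTCA or of its variants, which are written AGTTCA, then GGGTCA, and lastly GGTTCA, spaced by 1, 2 or 5 bases (DR1, DR2 and DR5), the kind of element that RAR and RXR bind. DR5 was found in 2 of 15 windows of these genes, those of Rarb and Cyp26a1, and in 32 of 32851 windows of all genes (0.0974%). DR1 was found in 73 windows (0.222%) and DR2 in 88 (0.268%), none of them of these 9 genes. The sequences that hold the repeat are shown in full, with it in capitals, since both promoters carried reChIP signal in all 3 kinds of cells. They lie at chr14:16575427-16575726 on the minus strand and at chr19:37697558-37697857 on the plus strand.
Rarb: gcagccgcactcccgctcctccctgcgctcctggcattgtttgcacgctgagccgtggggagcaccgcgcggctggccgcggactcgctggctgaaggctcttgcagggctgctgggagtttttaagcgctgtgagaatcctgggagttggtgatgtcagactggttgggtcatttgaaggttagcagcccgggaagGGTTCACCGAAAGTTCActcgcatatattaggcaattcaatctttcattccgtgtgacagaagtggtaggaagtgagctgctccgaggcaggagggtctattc
Cyp26a1: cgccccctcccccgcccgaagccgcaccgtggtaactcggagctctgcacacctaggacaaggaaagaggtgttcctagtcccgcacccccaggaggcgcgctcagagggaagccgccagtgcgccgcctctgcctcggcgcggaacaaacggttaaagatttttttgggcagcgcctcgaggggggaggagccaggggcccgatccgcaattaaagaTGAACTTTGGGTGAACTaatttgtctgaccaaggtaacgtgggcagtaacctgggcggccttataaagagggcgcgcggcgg
The Rarb repeat lay 53 to 37 bases before the start on the strand of the gene, and the Cyp26a1 repeat 32 to 16 bases before the start on the opposite strand. A match of letters is a description and not a measured binding site.

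The promoter sequences of the synthesis enzymes Aldh1a1 and Aldh1a2 differed widely in their content of CpG, the dinucleotide that is dense in CpG islands. Their windows are shown with each CG in capitals, because Aldh1a2 had a region in all 12 tables and Aldh1a1 in none. The Aldh1a2 window, chr9:71215539-71215838 on the plus strand, held 50 CpG and was 78% G or C. The Aldh1a1 window, chr19:20601718-20602017 on the plus strand, held 1 CpG and was 47% G or C.
Aldh1a2: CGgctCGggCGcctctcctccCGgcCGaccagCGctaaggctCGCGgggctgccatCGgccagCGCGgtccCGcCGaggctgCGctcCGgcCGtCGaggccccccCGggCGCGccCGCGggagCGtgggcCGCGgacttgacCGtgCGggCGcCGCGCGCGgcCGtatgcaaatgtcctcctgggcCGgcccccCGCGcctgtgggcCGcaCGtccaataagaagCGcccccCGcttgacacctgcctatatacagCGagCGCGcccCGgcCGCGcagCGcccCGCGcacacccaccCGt
Aldh1a1: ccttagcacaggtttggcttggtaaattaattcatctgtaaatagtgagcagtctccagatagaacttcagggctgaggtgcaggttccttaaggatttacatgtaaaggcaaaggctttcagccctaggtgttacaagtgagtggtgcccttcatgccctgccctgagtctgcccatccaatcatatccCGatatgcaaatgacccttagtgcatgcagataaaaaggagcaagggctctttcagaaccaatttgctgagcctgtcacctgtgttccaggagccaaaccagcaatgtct
The Rarb window held 17 CpG (57.7% G or C) and the Cyp26a1 window 26 (62.3%).

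Over the wider windows of 1.5 kb either side, the 10 genes have 20 annotated start sites, and 15 of them met a region in at least 1 table. The 5 without one were both Aldh1a1 sites, the Rarb site at chr14 17082331, which lies far upstream of the other, and the Rxra sites at chr2 27709292 and 27710583. CpG density was 0.333 to 1.20 per 100 bp at those 5 sites (median 0.733) and 1.13 to 7.53 at the 15 with a region (median 4.00), against a median of 2.33 over 31647 start sites of all genes. The groups overlapped only slightly, with the Cyp26b1 sites, at percentiles 26 and 25 of all start sites, the least CpG-rich among the member sites that met a region. The upstream Rarb site was at percentile 2.31 and the other at 61.0.

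The first question was which promoters carried a called region of each ChIP. The receptors and the enzymes differed most in the E14 totals. A total H3K4me3 region was present at all 4 receptors but at 1 of 6 enzymes (Aldh1a2), while a total H3K27me3 region was present at 1 of 4 receptors (Rarb) and at 5 of 6 enzymes (all but Aldh1a1). Of all genes, 53.2% had an H3K4me3 region and 12.1% an H3K27me3 region in the E14 tables. The study describes the in-line totals as noisy, likely from low starting material, and could call few peaks with them, so a missing call does not show a missing mark. Over the wider regions compared below, E14 total H3K4me3 without a call was still above IgG–IgG at Aldh1a3 (0.58 and 0.58), Cyp26a1/Cyp26c1 (0.47 and 0.38) and Cyp26b1 (0.93 and 0.64). Each E14 reChIP order had a region at the same 9 of the 10 genes, beside 58.7% of all genes for K4-K27 and 66.2% for K27-K4.

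In the clones the tables listed more of these promoters for each total. WT and DKO clones gave the same counts, with H3K4me3 regions at 4 receptors and 3 enzymes, H3K27me3 regions at 2 receptors and 5 enzymes, K4-K27 regions at 4 receptors and 4 enzymes, and K27-K4 regions at 3 receptors and 5 enzymes. The shares of all genes were 60.2%, 15.8%, 59.4% and 33.7% in WT and 56.1%, 17.6%, 57.8% and 32.1% in DKO clones. Rara and Rarg had no total H3K27me3 region in any of the 3 kinds of cells, and Rarg had no K27-K4 region in the clones. Cyp26a1 and Cyp26b1 had no total H3K4me3 region in any of them.

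A region in all 4 tables of a kind of cell marks a promoter window in which each mark and both reChIP orders were called, though the 4 regions need not overlap. In WT clones the total H3K27me3 region of Rarb (chr14:16576651-16577700) did not meet its total H3K4me3 region (chr14:16574701-16576200). In E14 cells these were Rarb, the receptor whose gene is itself induced by retinoic acid, and Aldh1a2, the main retinoic acid synthesising enzyme of the early embryo. In WT and in DKO clones Rxra, Aldh1a3 and Cyp26c1 joined them, which made 5 genes. Among all genes 7.67% had a region in all 4 tables in E14, 12.7% in WT and 12.2% in DKO cells. The tables of the clones list more regions of total H3K4me3 than the E14 table, 31935 in WT and 33905 in DKO against 21970, and the part of this in the counts was not tested.

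The regions also differed in width. The Cyp26 genes had the widest H3K27me3 regions, with 16.65 to 17.55 kb over Cyp26a1 and 3.15 to 18.6 kb over Cyp26b1, and Cyp26a1 and Cyp26c1, which are neighbours on chromosome 19, shared 1 region of 17.25 to 22.35 kb in several tables. The Rarb regions were 1.05 to 5.4 kb and those of Aldh1a2 0.9 to 5.4 kb wide. Rara (2.7 to 20.55 kb) and Rarg (7.35 to 26.55 kb) were wide through H3K4me3 and the reChIPs, as the plot of region widths shows.

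**Figure D1:**
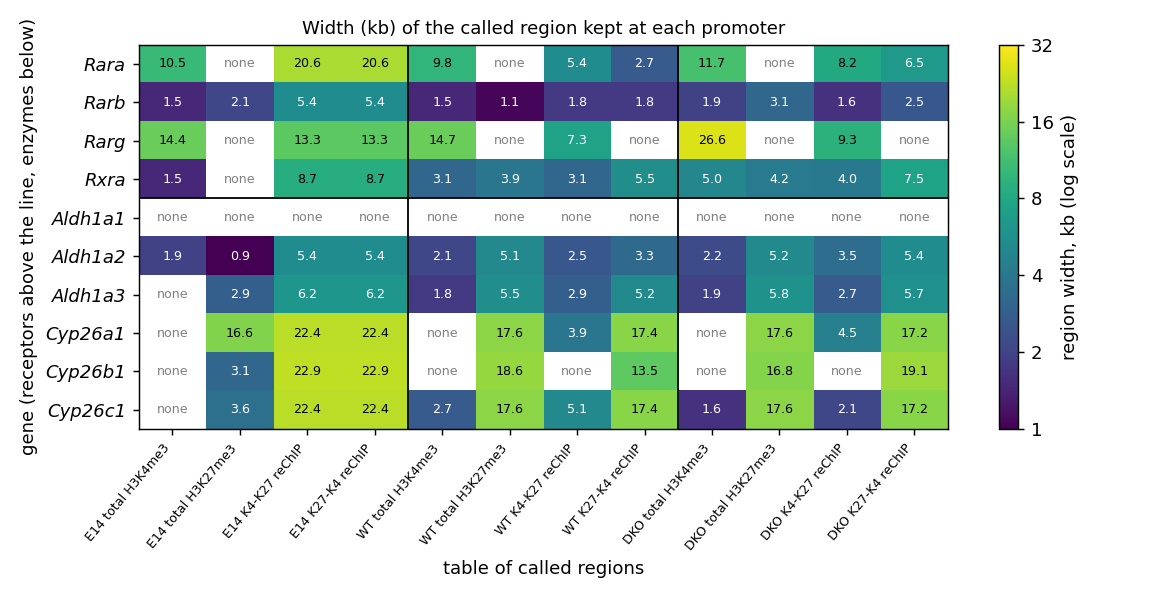
Width in kb (colour on a log scale, number in each cell) of the called region kept for each gene (rows) in each of the 12 tables (columns), with the receptors above the horizontal line and the enzymes below, and "none" where no region met the promoter. Rarb and Aldh1a2 have a region in all 12 tables, Aldh1a1 in none, and Rara and Rarg in none of the total H3K27me3 tables.

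To compare levels, 1 set of regions is needed, and the 21857 regions with the same coordinates in both E14 reChIP tables were used (the shared regions). They hold 8 regions for 9 of the genes. The receptor regions are chr11:98924701-98945250 (Rara), chr14:16573201-16578600 (Rarb), chr15:102239551-102252900 (Rarg) and chr2:27672451-27681150 (Rxra). The enzyme regions are chr9:71212801-71218200 (Aldh1a2), chr7:66424501-66430650 (Aldh1a3), chr19:37682551-37704900 (Cyp26a1 and Cyp26c1 together) and chr6:84572101-84595050 (Cyp26b1). Each covers the start of its gene, and that of Aldh1a2 also the start of Gm3458. Between 25 and 12742 reads stood behind a value, with a median of 476, and these counts set counting error only.

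Rarg, a receptor that mESCs are known to express, had high H3K4me3 and the lowest H3K27me3 of the 8 regions. Its total H3K4me3 was 1.04, 1.43, 3.14, 1.98, 3.05 and 2.54. Its total H3K27me3 was -1.77, -1.86, -2.30, -2.12, -3.07 and -1.87, below the IgG–IgG values of -0.09 in E14 and 0.16 in WT clone 57 in all 6 libraries. The K4-K27 reChIP gave -0.96 and 0.58 in E14 cells and 1.38 to 2.43 in the 4 clones, which do not overlap, as at 29.8% of all shared regions in this direction. K27-K4 ran the other way, with 0.35 and 1.63 in E14 cells and -0.62, -0.52, -0.61 and -0.06 in the clones, which also do not overlap, as at 44.2% of all shared regions in this direction, and where all 4 values lay below IgG–IgG.

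Rara, the broadly expressed receptor, followed Rarg in the totals but not in the reChIP of the clones. Its total H3K4me3 was 0.99, 1.15, 2.10, 1.07, 1.97 and 1.59, and its total H3K27me3 -0.97, -1.12, -0.32, -0.54, -0.69 and -0.37, again below IgG–IgG (0.01 and 0.02) in all 6 libraries. K4-K27 was -0.18, 1.11, 1.47, 0.83, 1.61 and 1.13, and K27-K4 0.95, 2.25, 0.73, 0.33, 0.62 and 0.79. The reChIP values thus lay above IgG–IgG in 5 of 6 and 6 of 6 libraries, while total H3K27me3 did in none.

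Rarb and Rxra, the common partner of the RARs, had both marks above the IgG–IgG of their own set of cells, though Rxra had no total H3K27me3 region in E14 cells. Rarb had total H3K4me3 at -0.19, 0.14, 1.11, 0.08, 0.88 and 0.88 and total H3K27me3 at 0.08, 0.20, 0.47, -0.37, 0.40 and 0.22. Its IgG–IgG values were -0.93 and -1.52, so that each of its values in the 4 ChIPs lay above the IgG–IgG of its own set of cells. K4-K27 was 1.30, 1.65, 1.76, 1.21, 1.72 and 0.89 and K27-K4 1.34, 2.55, 1.52, 1.09, 1.35 and 0.90, with E14, WT and DKO overlapping in both.

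Rxra had total H3K4me3 at 0.49, 0.46, 1.91, 0.89, 1.18 and 0.90. Its total H3K27me3 was -0.03 and 0.03 in E14 cells and 1.30, 0.82, 1.06 and 1.08 in the clones, all above both E14 values. The same held at 6 of the 8 regions, all but Rarb and Rarg, and at 28% of all shared regions. K4-K27 was 1.77, 2.28, 2.97, 2.20, 2.44 and 1.95, and K27-K4 1.88, 3.46, 2.90, 2.09, 2.40 and 2.05. All of these lay above the IgG–IgG of their own set of cells (-0.40 and -0.01).

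Among the enzymes, Aldh1a2 had the highest reChIP value in each library except K4-K27 of E14 replicate 1, where Cyp26b1 was at 2.25. K4-K27 was 2.21, 2.82, 3.88, 3.43, 3.15 and 2.17 and K27-K4 2.46, 3.93, 3.89, 3.19, 3.12 and 2.85, which put it between percentiles 98.3 and 99.8 of the shared regions in K27-K4. Its total H3K4me3 (0.11, 0.25, 1.88, 0.63, 1.25 and 1.06) was ordinary, at percentiles 42.7 to 58.9. Total H3K27me3 was 0.29, 0.11, 1.59, 1.24, 1.5 and 1.25, at percentiles 78.7 to 99.3. IgG–IgG was -0.82 and -0.55.

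Aldh1a3, the third synthesis enzyme, was lower than Aldh1a2 in each reChIP library, but its total H3K27me3 was higher in 4 of 6 libraries. Its total H3K4me3 lay between 0.25 and 1.45 and its total H3K27me3 at 0.45, 0.41, 1.70, 1.20, 1.25 and 1.41. K4-K27 was 1.76 to 2.93 and K27-K4 2.28 to 3.62 over the 6 libraries, and the values of E14 cells and clones overlapped in both.

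The degrading enzymes had H3K4me3 values below their H3K27me3 in each replicate and clone. The region shared by Cyp26a1 and Cyp26c1 had total H3K4me3 at 0.20, 0.10, 0.88, 0.25, -0.01 and -0.03, at percentiles 35.9 to 47.4, and total H3K27me3 at 0.73, 0.72, 1.84, 1.08, 1.43 and 1.24, at percentiles 97.3 to 99.1. Its K4-K27 was 2.16, 2.44, 2.19, 1.91, 1.46 and 1.21 and its K27-K4 2.01, 3.43, 2.84, 2.25, 1.88 and 1.64. Both DKO clones were thus below both WT clones in H3K4me3 and in both reChIPs, and within the range of the WT clones in H3K27me3.

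Cyp26b1 had total H3K4me3 at 0.44, 0.15, 0.73, -0.05, 0.25 and 0.36, above IgG–IgG in 5 of 6 libraries. Its total H3K27me3 was 0.57, 0.39, 1.71, 1.14, 1.34 and 1.30. The reChIP values were 1.65 to 2.48 in K4-K27 and 2.10 to 3.53 in K27-K4, and E14 cells and clones overlapped in both. In K4-K27 the E14 values (2.25 and 2.48) lay just above those of the WT clones (2.14 and 2.14), with DKO clone 43 (2.31) between the E14 values and clone 53 at 1.65. In every one of the 6 libraries of each reChIP order, the enzyme regions lay above IgG–IgG.

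**Figure D2:**
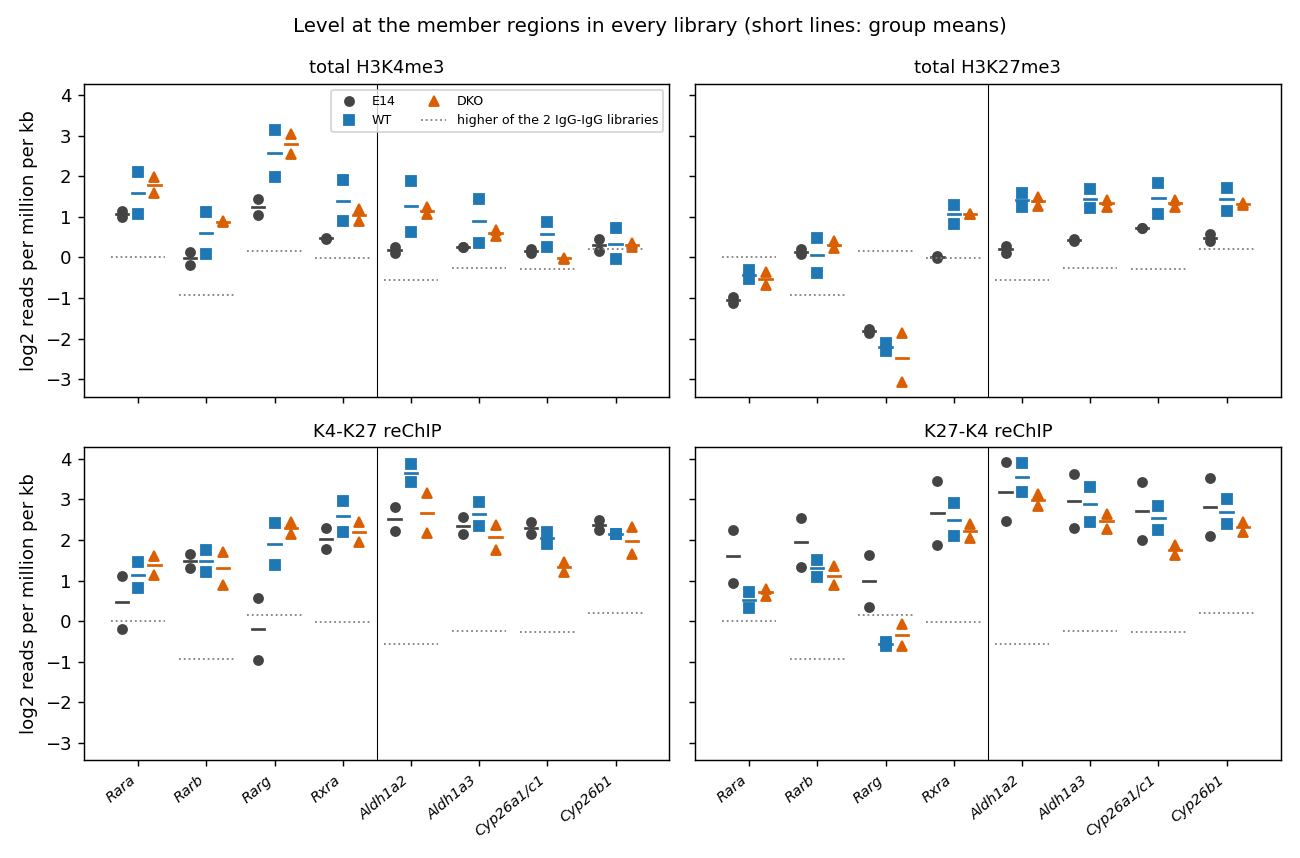
Level of both totals and both reChIP orders (panels, log2 RPM per kb) at the 8 shared regions in every library of E14 cells (circles), WT clones (squares) and DKO clones (triangles), with group means as short lines and the higher of the 2 IgG–IgG libraries dotted. Rarg and Rara lie below IgG–IgG in total H3K27me3, while the other 6 regions lie above the IgG–IgG of their own set of cells in every library of that mark.

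Receptors and enzymes were then compared library by library, as the mean of the 4 receptor regions minus the mean of the 4 enzyme regions. Genes are not replicates, so this is a description. In total H3K27me3 the receptors were lower in all 6 libraries, by a mean difference of -1.14 ± 0.06 in E14 (SD, n = 2), -1.82 ± 0.14 in WT and -1.75 ± 0.30 in DKO cells. In total H3K4me3 they were higher in all 6, with 0.47 ± 0.20, 0.77 ± 0.09 and 1.11 ± 0.17. In the IgG–IgG libraries the difference was 0.13 in E14 and -0.05 in WT clone 57.

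The receptors were also lower in both reChIP orders. The K27-K4 difference was -1.12 ± 0.05 in E14, -1.98 ± 0.22 in WT and -1.45 ± 0.18 in DKO cells. The K4-K27 difference was -1.44 ± 0.38, -0.84 ± 0.30 and -0.22 ± 0.07, and its 2 values did not overlap between any of the 3 kinds of cells (-1.71 and -1.17, -0.63 and -1.05, -0.27 and -0.17). Receptors and enzymes thus came nearest to each other in the K4-K27 libraries of the DKO clones, and whether the kinds of cells differ in this difference was not tested.

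The receptor group was not uniform. Split after the values had been seen, Rara and Rarg were lower than the enzymes in total H3K27me3 by -1.88 to -3.26 over the 6 libraries, and Rarb and Rxra by -0.30 to -0.94. In total H3K4me3, Rara and Rarg were 0.76 to 1.97 above the enzymes, and Rarb and Rxra between -0.10 and 0.49. In IgG–IgG of E14 cells and WT clone 57, Rara and Rarg were 0.44 and 0.37 above the enzymes, and Rarb and Rxra at -0.19 and -0.48. In K4-K27, Rara and Rarg minus the enzymes gave -2.77, -1.73, -0.85, -1.35, -0.30 and -0.06. Rarb and Rxra minus the enzymes gave -0.66, -0.61, -0.42, -0.75, -0.25 and -0.28, so the K4-K27 change between kinds of cells lay mostly at Rara and Rarg.

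The next comparison asked which mark prevailed at each region, as total H3K4me3 minus total H3K27me3 (the balance). The values come from 2 antibodies, so a region is read beside the median of all shared regions, which was 0.73 in E14, 0.96 in WT and 0.45 in DKO cells. Regions were tested with limma over all shared regions and called where the log2 difference passed 1 or -1 with an adjusted p (Benjamini-Hochberg) under 0.05. In E14 cells 44.3% of all shared regions were called higher in H3K4me3 and 4.52% lower.

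In E14 cells Rara and Rarg were called with more H3K4me3, and no enzyme was called. Rarg differed by 2.81 and 3.29 in replicates 1 and 2, which gave 3.05 (SE 0.32, adjusted p = 3.39e-06 by limma). Rara differed by 1.96 and 2.26, which gave 2.11 (SE 0.24, adjusted p = 5.6e-06 by limma). Both lay above the median of all regions in each replicate.

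The other 6 regions lay between -0.57 and 0.47 in E14 cells, all below the median of all regions (0.73). Rxra was at 0.47 (adjusted p = 0.0282) and the Cyp26a1/Cyp26c1 region at -0.57 (adjusted p = 0.0029), both under the threshold on the difference. Rarb was at -0.16, Aldh1a2 at -0.02, Aldh1a3 at -0.18 and Cyp26b1 at -0.19. With libraries centred on their median the split of calls over all regions went from 9689 higher and 989 lower to 6979 and 5897, and 6 of the 8 regions were called, among them Rarb (-1.03), Aldh1a3 (-1.05), Cyp26b1 (-1.05) and Cyp26a1/Cyp26c1 (-1.44) as lower. Rxra then turned to -0.39.

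In WT clones the same 2 receptors were called, beside 41.2% of all shared regions called higher and 2.95% lower. Rarg differed by 5.44 in clone 57 and 4.09 in clone 58 (4.77, SE 0.68, adjusted p = 3.21e-11 by limma), and Rara by 2.42 and 1.61 (2.02, SE 0.74, adjusted p = 0.0154 by limma). The Rara call was lost without the total H3K27me3 library of clone 57 (2.13, adjusted p = 0.417) or 58 (1.91, adjusted p = 0.486) and, for its size, with centring (0.74). The Rarg call was lost without that of clone 57 (4.68, adjusted p = 0.0538). The differences without 1 library were thus about as large as with all. Cyp26b1 was at -1.09 (adjusted p = 0.249) and Cyp26a1/Cyp26c1 at -0.89 (adjusted p = 0.372). Rarb, at 0.55, was called without the total H3K4me3 library of clone 58 (1.06, adjusted p = 0.0418), as were 12518 of all 21857 regions. With centring the calls over all regions were 7396 higher and 7810 lower, and 5 of the 8 regions were called.

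In DKO clones 4 of the 8 regions were called, with 42.9% of all shared regions called higher and 11.2% lower. Rarg was at 5.26 (SE 0.43, adjusted p = 7.11e-07) and Rara at 2.31 (SE 0.28, adjusted p = 9.99e-06), both towards H3K4me3. The Cyp26a1/Cyp26c1 region was at -1.35 (SE 0.26, adjusted p = 0.000503) and Cyp26b1 at -1.01 (SE 0.22, adjusted p = 0.00166), both towards H3K27me3. Cyp26b1 lost its call without the total H3K4me3 (-0.96) or total H3K27me3 (-0.99) library of clone 43. With centring the calls over all regions were 7299 higher and 9467 lower, and 7 of the 8 regions were called.

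Whether the balance itself differed between cells was tested with an interaction. None of the 8 regions passed, for WT clones against E14 cells (0.0778% of all regions called) or for DKO against WT clones (0.549%). Rarg differed most between WT clones and E14 cells, by 1.72 (SE 0.68, adjusted p = 0.297), and the Cyp26a1/Cyp26c1 region was at -0.46 (SE 0.72) between DKO and WT clones with an adjusted p of 1.00. In the leave-out fits 2 of the 8 regions were called for WT against E14 in 1 fit, the one without the total H3K4me3 library of WT clone 58, which called 6484 of all 21857 regions. The plot of the balance shows both replicates of each kind of cell.

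**Figure D3:**
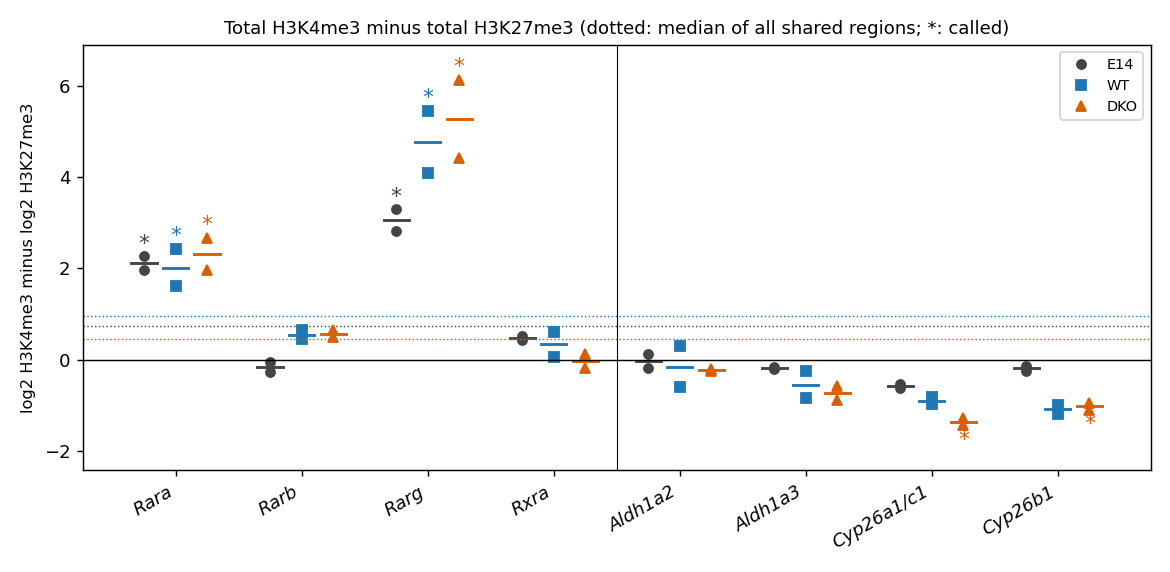
Total H3K4me3 minus total H3K27me3 (log2) at the 8 shared regions for each replicate of E14 cells, WT clones and DKO clones, with group means as short lines, the median of all 21857 shared regions dotted in the colour of the cells, and an asterisk where limma called the region. Rara and Rarg lie above all 3 medians in every replicate, and the enzyme regions lie below them.

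The order of the 2 pulldowns was compared as K27-K4 minus K4-K27 (the orientation). In E14 cells all 8 regions were above 0, from 0.42 at Cyp26a1/Cyp26c1 to 1.18 at Rarg, beside a median of 0.70 over all shared regions. None was called, and limma called 0 of the 21857 regions (0%), with 55 at an unadjusted p under 0.05. The absence of a call says little here, since the standard errors were large, 1.00 at Rara. With the replicate as a block, which pairs libraries of the same day and batch, limma called 1523 regions, among them Rara (1.14, SE 1.00 and adjusted p = 0.829 without the block, adjusted p = 0.0483 with it). With libraries centred on their median, 6 of the 8 regions fell below 0. K27-K4 was above K4-K27 in both replicates at 76.9% of all shared regions, and at Rara, Rarb, Rarg, Rxra, Aldh1a2 and Aldh1a3 but not at the Cyp26 regions.

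In the clones Rarg stood apart, with K4-K27 above K27-K4. The orientation of Rarg was -3.02 and -1.90 in WT clones 57 and 58 and -3.05 and -2.21 in DKO clones 43 and 53. This gave -2.46 (SE 0.52, adjusted p = 1.35e-05 by limma) in WT and -2.63 (SE 0.42, adjusted p = 3.21e-09) in DKO clones, and it was the only member called in either. Among all shared regions 29.7% were called lower in WT and 31.3% in DKO clones, so this direction was common. Rarg kept its call with each alternative tried in the clones.

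No other member was called in the clones. Rara was at -0.62 (adjusted p = 0.436) and -0.67 (adjusted p = 0.237) in WT and DKO clones and turned to 0.37 and 0.35 with centring. The enzymes lay between -0.11 and 0.56 in WT and between 0.32 and 0.42 in DKO clones, with Rarb and Rxra between -0.18 and 0.03 in both, beside medians of all regions of -0.23 and -0.11. Centring moved the median of all regions to 0.76 and 0.90 and called 4 of the 8 regions in WT and 6 in DKO clones, among them Cyp26a1/Cyp26c1 (1.49 and 1.44) and Cyp26b1 (1.55 and 1.36) as higher in K27-K4. Over all regions the calls went with centring from 289 higher and 6486 lower to 7397 and 4603 in WT, and from 733 and 6835 to 8292 and 4408 in DKO clones.

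The orientation of Rarg differed between WT clones and E14 cells by -3.64 (SE 1.03, adjusted p = 0.00427 by limma, interaction), and 24.7% of all shared regions were called in this direction, as were 4 of 18 genes of the wider list of retinoid genes described last. It was the only one of the 8 regions to pass. With centring the difference was -1.97 (adjusted p = 0.0251), and the calls over all regions went from 35 higher and 5407 lower to 5042 and 4030, with 4 of the 8 regions called. The call was lost in 5 of 8 fits that left out 1 library each, namely E14 K4-K27 replicate 1 (adjusted p = 0.0803), E14 K27-K4 replicate 2 (adjusted p = 0.0661), WT K4-K27 clone 57 (adjusted p = 0.0733), WT K27-K4 clone 57 (adjusted p = 0.0643) and WT K27-K4 clone 58 (adjusted p = 0.0555), with differences between -2.87 and -3.69. Cells and batch cannot be told apart here. The shared regions were also chosen by calls in the E14 reChIP libraries that enter this contrast, and Rarg had no K27-K4 region in the clones. The contrast is thus not independent of the choice of regions. Between DKO and WT clones none of the 8 regions passed, with 0.00458% of all regions called.

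**Figure D4:**
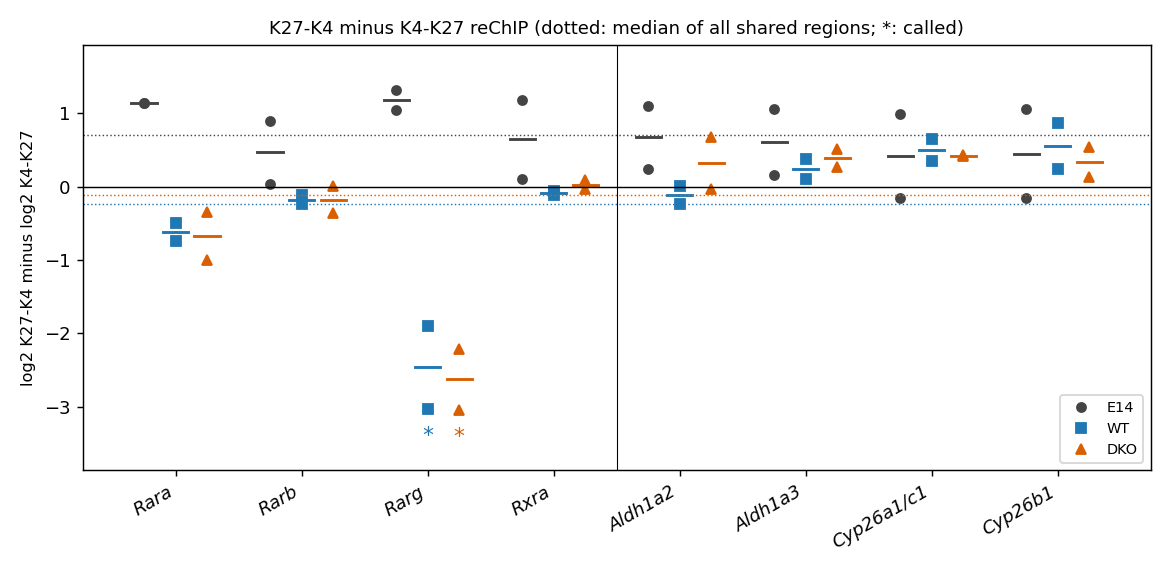
K27-K4 minus K4-K27 (log2) at the 8 shared regions for each replicate of E14 cells, WT clones and DKO clones, with group means as short lines, the median of all shared regions dotted in the colour of the cells, and an asterisk where limma called the region. Rarg lies at 1.32 and 1.04 in E14 cells and between -3.05 and -1.90 in the 4 clones.

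DKO and WT clones were compared ChIP by ChIP at the regions that the tables of the clones list, to ask whether loss of DPPA2 and DPPA4 changed these promoters. Of the 10 genes, 8 had a region in K4-K27, 8 in K27-K4, 7 in total H3K4me3 and 7 in total H3K27me3, and limma called none of them. Of all regions 1.19% were called for K4-K27, 2.26% for K27-K4, 2.72% for total H3K4me3 and 2.75% for total H3K27me3, nearly all of them lower in DKO clones for both reChIPs. Of the member regions, 6 of 8 were below 0 in K4-K27 (median -0.45), 6 of 7 in K27-K4 (median -0.36), 4 of 7 in total H3K4me3 (median -0.13) and 5 of 6 in total H3K27me3 (median -0.07). The medians over all regions tested, which join those listed for WT and for DKO clones, were -0.01, -0.15, 0.13 and 0.11. At the regions listed for WT clones alone they were -0.34, -0.65, -0.01 and -0.33. The Cyp26c1 regions tested in K4-K27 and total H3K4me3 and the Cyp26a1/Cyp26c1 region in K27-K4, described next, are regions listed for WT clones. In the totals the direction rested on the WT clones, with 1 of 7 below 0 in total H3K4me3 and 0 of 6 in total H3K27me3 without clone 57, and 7 of 7 and 6 of 6 without clone 58. In K4-K27 the same fits gave 4 and 8 of 8, and in K27-K4 4 and 6 of 7.

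The lowest adjusted p of the members was in K4-K27 at Cyp26c1, a degrading enzyme known for its expression in the embryonic head. In K4-K27 its region at chr19:37684651-37689750 was at 2.59 and 2.33 in WT and at 1.36 and 1.02 in DKO clones, so that the genotypes do not overlap. The difference was -1.27 (SE 0.61, unadjusted p = 0.0363 and adjusted p = 0.278 by limma). In total H3K4me3 its region at chr19:37686001-37688700 was at 2.03 and 1.36 in WT and at 0.70 and 0.52 in DKO clones.

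That H3K4me3 difference at Cyp26c1 was -1.08 (SE 0.62, adjusted p = 0.599 by limma), again without overlap. It was called where libraries were centred on their median (-1.12, adjusted p = 0.00143) or per chromosome (-1.13, adjusted p = 0.00217) and where WT clone 58 was left out (-1.42, adjusted p = 0.0349). These fits called 3899, 4188 and 6018 of 64063 regions, where the fit of all clones called 1745. Cyp26a1, its neighbour, had a K4-K27 region of its own at chr19:37695901-37700400, with 3.34 and 2.95 in WT and 2.84 and 2.44 in DKO clones (-0.51, SE 0.61, adjusted p = 0.837). At the narrower regions that the DKO tables hold for Cyp26c1 the differences were much the same, with -1.12 (SE 0.71) in total H3K4me3 and -1.38 (SE 0.59, adjusted p = 0.218) in K4-K27. The pair also shared a K27-K4 region at chr19:37683901-37701300, with 3.16 and 2.55 in WT and 2.14 and 1.95 in DKO clones.

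The K27-K4 difference of this pair was -0.81 (SE 0.48, adjusted p = 0.346 by limma), and it was called without WT clone 58 (-1.12, adjusted p = 0.0199), a fit that called 8630 of 59260 regions where the fit of all clones called 1341. Over the wider shared region of Cyp26a1 and Cyp26c1, both DKO clones lay below both WT clones in total H3K4me3, K4-K27 and K27-K4 together, which held for 12.2% of all shared regions. Total H3K27me3 of the pair did not differ beyond the spread of the clones, with 2.09 and 1.29 in WT and 1.64 and 1.47 in DKO clones (-0.14, SE 0.42).

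Aldh1a2 also had regions without overlap between genotypes. Its K4-K27 region at chr9:71214601-71218050 was at 4.50 and 4.03 in WT and at 3.73 and 2.74 in DKO clones (-1.02, SE 0.67, adjusted p = 0.491 by limma). In K27-K4 it was at 3.89 and 3.19 in WT and at 3.12 and 2.85 in DKO clones (-0.56, SE 0.57, adjusted p = 0.584). Its total H3K4me3, with 3.09 and 1.65 in WT and 2.34 and 2.13 in DKO clones, overlapped, as did its total H3K27me3, with 1.62 and 1.27 in WT and 1.51 and 1.28 in DKO clones.

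The receptors overlapped between the genotypes in each ChIP in which they had a region. Rara and Rarg had no total H3K27me3 region and Rarg no K27-K4 region in the clones. Rarg was at 2.73 and 1.79 in WT and 2.77 and 2.44 in DKO clones in K4-K27 (0.35, SE 0.59), and Rara was at 2.95 and 2.34 against 3.10 and 2.72 at its downstream promoter (0.26, SE 0.60). Rarb was at 3.22 and 2.25 against 3.20 and 2.08 (-0.10, SE 0.60), and Rxra at 3.98 and 3.03 against 3.43 and 2.80 (-0.39, SE 0.63). The standard errors of 0.59 to 0.63 on the log2 scale leave room for differences in either direction.

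Counted over all members, both DKO clones lay below both WT clones at 3 of 8 regions in K4-K27 (Aldh1a2, Cyp26a1 and Cyp26c1), 2 of 7 in K27-K4 (Aldh1a2 and the Cyp26a1/Cyp26c1 region), 1 of 7 in total H3K4me3 (Cyp26c1) and 0 of 6 in total H3K27me3. The same held for 19.2%, 30.8%, 12.6% and 18.5% of all regions tested, so that the shares of the members in K27-K4 and total H3K4me3 were near those of all regions. The member regions counted come from 2 loci, Aldh1a2 and the neighbours Cyp26a1 and Cyp26c1. Cyp26b1 overlapped in K27-K4, with 3.23 and 2.59 in WT and 2.69 and 2.41 in DKO clones (-0.36, SE 0.51). Aldh1a3 overlapped in K4-K27, with 3.98 and 3.38 in WT and 3.44 and 2.75 in DKO clones (-0.59, SE 0.64).

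**Figure D5:**
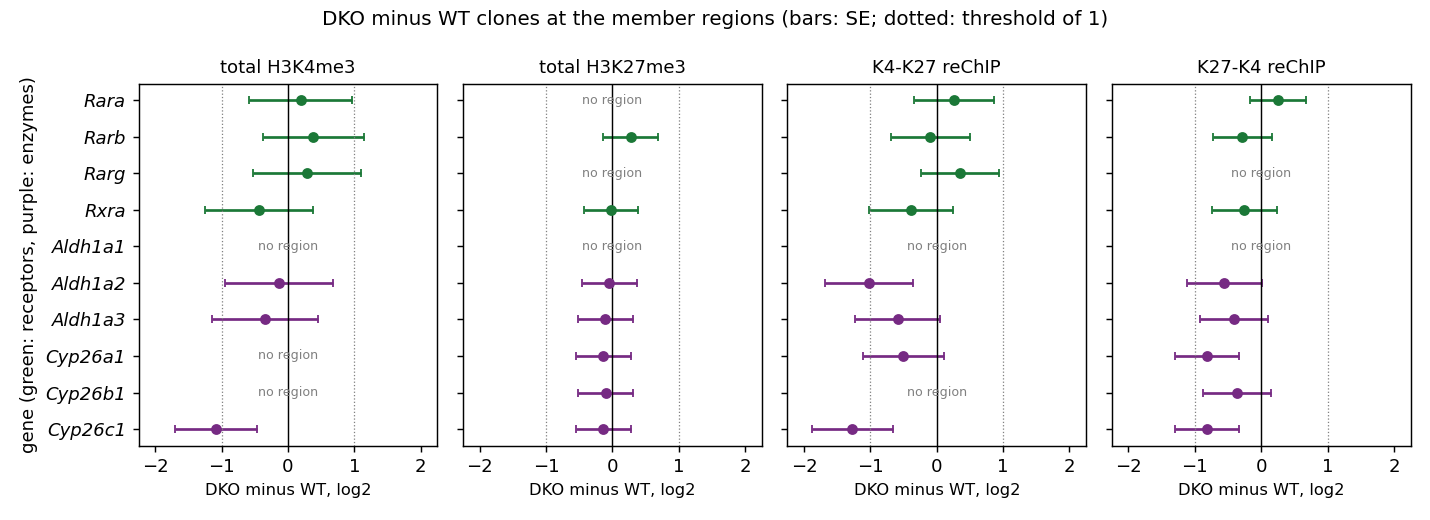
DKO minus WT clones (log2 difference with its standard error, limma) for each gene in each ChIP, with receptors in green, enzymes in purple and the threshold of 1 in either direction dotted. Cyp26c1 and Aldh1a2 lie beyond -1 in K4-K27 and Cyp26c1 in total H3K4me3, and none of the points was called.

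The wider retinoid pathway was described with 23 further genes, which cover other RXRs, carriers, retinol and retinaldehyde steps, coregulators and a target gene. In the DKO against WT comparisons 20 of them had a region in K4-K27, 14 in K27-K4, 16 in total H3K4me3 and 8 in total H3K27me3, and limma called 0 in each, with medians of -0.09, -0.11, -0.06 and 0.21. The furthest from 0 in K4-K27 were Bco1, which cleaves beta-carotene (2.30, SE 1.06, adjusted p = 0.257), and Stra6, the retinol uptake receptor (-2.03, SE 0.92, adjusted p = 0.246). With all 16 ChIP libraries of the clones in 1 fit both were called (adjusted p = 0.00505 and 0.0111), as were 7602 of all 53855 regions, and Bco1 was also called without trend and robust estimation (adjusted p = 0.0474), as were 7715. In K27-K4 they were Lrat, which stores retinol as esters (-0.85, adjusted p = 0.328), and Stra6 (-0.84, adjusted p = 0.310).

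In total H3K4me3 the largest differences of the wider list were at Lrat (-0.74) and the retinol dehydrogenase gene Rdh11 (0.61), and in total H3K27me3 at Bco1 (0.50) and the fatty acid and retinoid carrier gene Fabp5 (0.37). Lrat was called without WT clone 58 in K27-K4 (-1.16, adjusted p = 0.0148) and in total H3K4me3 (-1.44, adjusted p = 0.0316). At the shared regions, which hold 18 of the 23 genes, limma called the balance higher in H3K4me3 for 8 in E14, 8 in WT and 10 in DKO cells, and lower for 0, 0 and 2. Of all shared regions 44.3%, 41.2% and 42.9% were called higher and 4.52%, 2.95% and 11.2% lower. The coactivator gene Ncoa3 (3.31, 4.61 and 4.98) and Rdh11 (3.29, 3.63 and 4.47) led in all 3, near the values of Rarg, and both lost the call in WT clones without the total H3K27me3 library of clone 57. In orientation 0 genes of the list were called in E14, 4 in WT and 5 in DKO cells, all lower, beside the 29.7% and 31.3% of all shared regions called lower in WT and DKO clones, with Rdh11 at -2.28 and -2.25 and Ncoa3 at -2.14 and -2.43 in WT and DKO clones. The Ncoa3 call in WT clones was lost without the K27-K4 library of clone 58 (adjusted p = 0.0590). The furthest from 0 in E14 cells was Ncoa2 (1.35, adjusted p = 0.829), also a coactivator gene, which was called with the replicate block (adjusted p = 0.0275).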

How the data were processed

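Per the submitters' processing notes and the methods of the study, reads were trimmed with Trim Galore 0.6.6, aligned to mm10 with BWA 0.7.13 and handled with SAMtools 1.9, Picard 2.6.0 and deepTools 3.5.0. The values that the authors deposited are log2 RPM (reads scaled to library size) per kb of called region, counted in SeqMonk from primary alignments with a mapping quality over 20, with reads extended by 200 bp and duplicates kept. IgG–IgG was not subtracted. The methods name EPIC2 with IgG–IgG as control for calling peaks and the processing notes also list MACS2, but every region edge in the tables lies on a grid of 150 bases, which is not the bin size stated there, so the settings behind the deposited regions are not given in the sources used here. Values of the 26 libraries were read from 240 columns of 12 tables, and 32 columns of no sample of this series were not used.

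Groups were compared with limma 3.58.1 (lmFit, then eBayes with trend and robust estimation) in R 4.3.3 with the log2 values as input, and p-values were adjusted by Benjamini-Hochberg across every region tested. A region was called at an absolute log2 difference over 1 and an adjusted p under 0.05. Only the groups compared entered each fit. With 2 libraries per group the p-values rest on a spread between 2 passages or 2 clones that limma pools across regions. They do not measure the spread at 1 region alone. Standard errors are those of limma. The balance in the clones was planned at regions with the same coordinates in both reChIP tables of a genotype, which were 332 in WT and 199 in DKO clones and held, of the 10 genes, only Rarb in WT (1.43, adjusted p = 0.183) and none in DKO clones. The shared E14 regions were therefore used, a choice made after seeing the data, as was that of adding the orientation in the clones and the interactions.

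The 10 genes and the wider list were chosen with earlier results of these data known. The text names all 10 genes, and of the wider list those called in a DKO against WT fit and the 2 furthest from 0 per fit, except for 1 result that is not reported here. Libraries with the same number come from the same passage and day (E14) or the same clone, which pairs them. Deviations from group means correlated between same-numbered libraries at -0.215 to 0.576 in E14, -0.206 to 0.391 in WT and -0.116 to 0.313 in DKO cells across regions. The fits reported have no block, and the block is an alternative. Depth was recovered from the steps of the values (1 read, with 0.9 entered for 0) and sets counting error only. The fits were first tested on simulated data, in which the E14 orientation and DKO against WT in total H3K4me3 missed most large changes and K4-K27 some, so that the absence of a call in these fits does not show that a region did not change. Alternatives were centring of libraries (on their median or per chromosome), a filter on the lowest quartile of values, other region sets, the variance model, the thresholds, the replicate block, the IgG–IgG library and leaving out libraries. All else was done in Python 3.11.15 (pandas 2.3.3, numpy 2.4.6, scipy 1.17.1) and drawn with matplotlib 3.10.9.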

Additional observations from a re-analysis of the deposited data

Results flagged for a closer look

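Rarg is listed because its response to the order of the pulldowns differed between kinds of cells. K27-K4 exceeded K4-K27 in both E14 replicates and was lower in both WT clones, and the difference between these differences was -3.64 on the log2 scale (limma interaction), or -1.97 with libraries centred on their median. Of all shared regions 24.7% were called in the same direction. These regions were chosen by calls in the E14 reChIP libraries that enter the contrast, and Rarg had no K27-K4 region in the clones. Rarg lost its call in 5 of 8 fits without 1 library, and cells and batch cannot be told apart.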

How the results depend on the processing

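With 2 libraries per group and p-values from a variance shared across regions, counts over all regions moved widely. DKO against WT called 643 regions in K4-K27, but 7602 with all 16 ChIP libraries of the clones in 1 fit, 7715 without trend and robust estimation and 1060 at the shared E14 regions. K27-K4 went from 1341 to 891 with centring per chromosome and 2043 at the shared regions. Total H3K4me3 went from 1745 to 3899 (centring on the median), 4188 (per chromosome), 336 (lowest quartile left out), 735 (all 16 libraries) and 829 (regions of the WT table). Total H3K27me3 went from 1468 to 0 with either centring and 0 with all 16 libraries, 314 without the lowest quartile, 675 at the WT table and 618 at the shared regions. Of the members, 1 was called in total H3K4me3 with either centring. The causes of these moves were not tested.

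The replicate block raised the E14 orientation from 0 to 1523 calls with 1 member region, Rara, and gave 10649 and 11685 calls for the WT and DKO balance at the shared regions, beside 9652 and 11833 without it and 143 and 131 in the small planned sets. It changed no other call of the 10 genes.

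Centring on the median moved the calls to 12000 and 12700 for the WT and DKO orientation (4 and 6 member regions called, 1 and 1 below 0), to 15206 and 16766 for their balance (5 and 7 member regions), to 9072 for the orientation of WT minus E14 (4 member regions), to 0 for that of DKO minus WT and to 8 for the balance of DKO minus WT. The median of all regions moved to 0.0195, 0.76 and 0.90 in the E14, WT and DKO orientation and to -0.13, -0.32 and -0.67 in the balance at the shared regions, and to -0.00131 and -0.18 in the small planned sets of WT and DKO clones. In the E14 balance 6 member regions were called with centring and 4 with no threshold on the difference, beside 13529 of all 21857 regions. The E14 orientation turned to -0.26 at Cyp26a1 and -0.23 at Cyp26b1, with 6 member regions below 0. Rara turned to 0.37 and 0.35 in the WT and DKO orientation, Rxra to -0.39 and -0.94 in the E14 and WT balance, and Rarb to -0.73 and -0.55 in the WT and DKO balance.

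Taken as the median over the genes in place of the mean, receptors minus enzymes gave -0.98, -1.63 and -1.44 in total H3K27me3 of E14, WT and DKO cells, and 0.17 and 0.41 in the E14 and WT IgG–IgG. With the IgG–IgG library of the other set of cells, the median enrichment of the member regions was 0.72 and 0.48 in total H3K4me3 and H3K27me3 of E14 cells and 1.57 and 1.51 in DKO clones.

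Fits without 1 library leave some groups with 1 sample, which is then assumed to vary like the others. They called 243 to 558 regions in K4-K27, 482 to 8630 in K27-K4, 74 to 6018 in total H3K4me3 and 133 to 650 in total H3K27me3 for DKO against WT, where the highest counts were without WT clone 58 in the first 3 and without WT clone 57 in the last. For orientation they called 4470 to 8390 in WT (median of all regions -0.53 to -0.01) and 4179 to 9838 in DKO clones (median -0.39 to -0.02), 3 to 7070 for WT minus E14 and 1 to 145 for DKO minus WT. For the balance they called 2009 to 12518 in WT and 10887 to 11944 in DKO clones (median 0.41 to 0.53) at the shared regions, 0 to 6484 for WT minus E14 and 13 to 1152 for DKO minus WT. Without a whole clone, which leaves no test, the median was -0.32 to -0.29 in the WT and -0.30 to -0.10 in the DKO orientation and 1.32 to 1.49 in the small planned set of the DKO balance. Member regions called ranged from 0 to 1 for DKO against WT in K27-K4 and in total H3K4me3, 0 to 3 in the WT balance, 0 to 1 in the orientation of WT minus E14 and 0 to 2 in the balance of WT minus E14. Member regions below 0 ranged from 1 to 7 in total H3K4me3 and 0 to 6 in total H3K27me3 of DKO against WT, 0 to 6, 2 to 6 and 2 to 5 in the E14, WT and DKO orientation, and 3 to 5 in the E14 balance. The sign turned at some genes. For DKO against WT these were Aldh1a2 (-0.85 to 0.59) and Rdh11 (-0.14 to 1.35) in total H3K4me3, and Aldh1a2 (-0.22 to 0.13) and Cyp26a1/Cyp26c1 (-0.54 to 0.26) in total H3K27me3. In the E14 orientation they were Cyp26a1 (-0.29 to 1.14) and Cyp26b1 (-0.27 to 1.17). In the balance they were Rarb (-0.32 to 0.0033) and Aldh1a2 (-0.11 to 0.068) in E14, Rxra (-0.17 to 0.84) and Aldh1a2 (-0.78 to 0.47) in WT and Rxra (-0.17 to 0.11) in DKO cells.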
